A study of Mus musculus with 4 samples.

Results

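The platelet-derived growth factors are secreted dimers that act through a pair of related receptor tyrosine kinases, PDGFRα (Pdgfra) and PDGFRβ (Pdgfrb). The ligands PDGF-A (Pdgfa) and PDGF-B (Pdgfb) are cut by proprotein convertases before or during secretion, whereas PDGF-C (Pdgfc) and PDGF-D (Pdgfd) leave the cell latent and become active once proteases outside the cell remove their CUB domain. PDGF-A and PDGF-C bind mainly PDGFRα, PDGF-D binds mainly PDGFRβ, and PDGF-B binds both. In bone marrow PDGFRα together with Sca1 is used to isolate mesenchymal progenitors, PDGFRβ marks pericytes, and PDGF-B from the endothelium is the textbook signal that recruits pericytes to a vessel.

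The 6 genes described here are all 4 ligands and both receptors of this family. They were taken by name from the 26600 genes that the 4 count tables have in common, and every one of them was listed in all 4. Each table came from one 10x Genomics single-cell RNA-seq library of the brightest Td+ cells from endosteal bone marrow of male Col2:Td mice, in which Cre recombinase under a Col2 promoter switches on a tdTomato reporter at the Rosa26 locus in cells of the mesenchymal lineage and their descendants. The ages were 1 month (2 mice pooled), 1.5 months (3 mice), 3 months (3 mice) and 16 months (3 mice), all of the Col2:Td genotype, labelled B6SJL/F1 and given no treatment that the labels name. The sort does not fix what a cell is: endothelial and blood cells were among the sorted cells, and only 29.2% of filtered cells were of stromal classes at 1 month, against 95%, 62.2% and 84.8% at the later ages. With 1 library per age there is no replicate, so no difference below has a test, and all intervals are 95% intervals that cover counting error only.

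The libraries held 4516 to 9229 barcodes and 32672631 to 108227184 unique molecular identifiers (UMIs, each standing for 1 captured transcript). The filter on barcodes (between 200 and 6000 genes detected, mitochondrial UMIs up to 5%) left out 1.29% of barcodes at 1 month but 33.4% at 16 months. The 16 month library also came with another gene table (31054 against 27999 genes) and another barcode set (129 barcode starts shared with the 480 of the younger libraries), so age and these differences cannot be told apart. Between 30 and 61 barcodes were shared by any 2 of the younger libraries, and 1 or 2 with the oldest.

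Cells were clustered without the 6 genes and without the naming markers, and the clusters were named from markers by the classes of the study: EMP for early and LMP for late mesenchymal progenitors, OB for osteoblasts, Ocy for osteocytes, AD for the adipogenic lineage, CH for chondrocytes, plus endothelial, mural and blood classes. "Like" is added throughout, because these names were rebuilt from the count tables. The markers counted next also gave the names, so their levels describe the classes and are no independent check. Of the 9 AD markers 8 or 9 were at their highest summed level in AD-like cells of each library, of the 7 EMP markers 5 to 7 in EMP-like cells, and all 5 Ocy, 10 CH and 6 endothelial markers in their own class. OB-like cells were the exception, with 3 or 4 of 6 OB markers highest there, and mural-like cells (22 to 64 per library) had 6 to 8 of 9.

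Levels are given as CPM, the UMIs of a gene summed over all cells of a class in 1 library and scaled to 1e6 UMIs of that class. Free RNA in a droplet library puts a few UMIs of every abundant transcript into cells that do not make it. Neutrophil-like cells, in which no member is known as a defining product, served as the gauge. They did so at 1, 3 and, with a limit given below, 16 months. At 1.5 months the 44 neutrophil-like cells held 38127 CPM of the summed CH markers, against 68449 CPM in CH-like cells, and 16320 CPM of the OB markers, so their values are given but are no measure of free RNA. Pdgfra stood at 1.4, 7.75, 1.96 and 30.5 CPM in neutrophil-like cells at 1, 1.5, 3 and 16 months, and Pdgfrb at 2.79, 15.5, 4.75 and 62 CPM. For the ligands the same cells read 3.21 to 32.6 CPM for Pdgfa, 0 to 0.868 for Pdgfb, 0 to 3.1 for Pdgfc and 0.792 to 3.1 for Pdgfd. Of 1, 3 and 16 months, the receptor level of neutrophil-like cells was highest at 16 months. In that library AD-like cells supplied 69.5% of all Pdgfra and 77.5% of all Pdgfrb UMIs of the filtered cells. With all UMIs of a cell counted, 85.4% of 281 neutrophil-like cells there had neither receptor. Pdgfrb was found in 75% of the 28 with a Pdgfra UMI and in 5.14% of the 253 without. The summed AD markers read 4619 CPM in them, against 124 and 367 CPM at 1 and 3 months. The receptor UMIs thus lay in a minority of these cells and are no even measure of free RNA.

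Among the receptors, Pdgfra was highest in EMP-like and AD-like cells of the named classes. At 1 month a stromal cluster led by Prg4 (22 cells), left unnamed by the markers, read 111 CPM (71.1 to 165). EMP-like cells, which carry Ly6a (Sca1), Cd34 and Mfap5, read 101, 154, 126 and 325 CPM of Pdgfra at 1, 1.5, 3 and 16 months (130, 153, 87 and 412 UMIs). AD-like cells read 67.5, 107, 118 and 213 CPM. The EMP-like value was the higher in all 4 libraries, but at 3 months the pair were close.

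The log2 ratio of Pdgfra in EMP-like over AD-like cells was 0.59 (0.21 to 0.97) at 1 month, 0.52 (0.26 to 0.77) at 1.5 months, 0.09 (-0.28 to 0.46) at 3 months and 0.61 (0.47 to 0.76) at 16 months. At 3 months the counting interval thus spans no difference. Lower down, LMP-like cells held 33.6, 55.9, 39.8 and 122 CPM and OB-like cells 31.4, 46.4, 47.6 and 76.5 CPM. The ranges of these neighbours in the order EMP, AD, LMP, OB overlap over the 4 libraries. Within each library, however, EMP-like and AD-like cells were above LMP-like and OB-like cells.

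Ocy-like cells had less, at 10.5, 27.8, 19.6 and 57.5 CPM of Pdgfra from 7, 37, 5 and 38 UMIs. CH-like cells, the cartilage class, were the lowest of the 6 mesenchymal classes, at 7.55, 5.67, 2.77 and 11.1 CPM. Pdgfra in EMP-like cells was 13.4, 27.1, 45.5 and 29.4 times that in CH-like cells of the same library. At 16 months the CH-like value lay below the neutrophil-like one. As that one came from a minority of cells, the part of free RNA in the CH-like value was not tested.

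Mural-like cells, which surround vessels, showed 2, 1, 0 and 12 Pdgfra UMIs at 1, 1.5, 3 and 16 months, or 8.79, 2.44, 0 and 54.8 CPM. The 0 at 3 months allows up to 26.3 CPM (3 counts). The 54.8 CPM at 16 months compares with 30.5 CPM in neutrophil-like cells of that library, and the AD markers moved with it: their summed level in mural-like cells was 677, 2571, 623 and 11811 CPM, with Lepr, Kng1 and Esm1 at 0 at 1 month and Kng1 at 0 at 3 months. In endothelial-like cells Pdgfra read 2.05, 37.1, 13.3 and 66.8 CPM, and the summed AD markers 916, 10729, 2703 and 10417 CPM. The endothelial-like level of Pdgfra was higher at 1.5 and 16 months, when those cells also held more AD marker RNA, and the part of that RNA in the result was not tested.

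**Figure D1:**
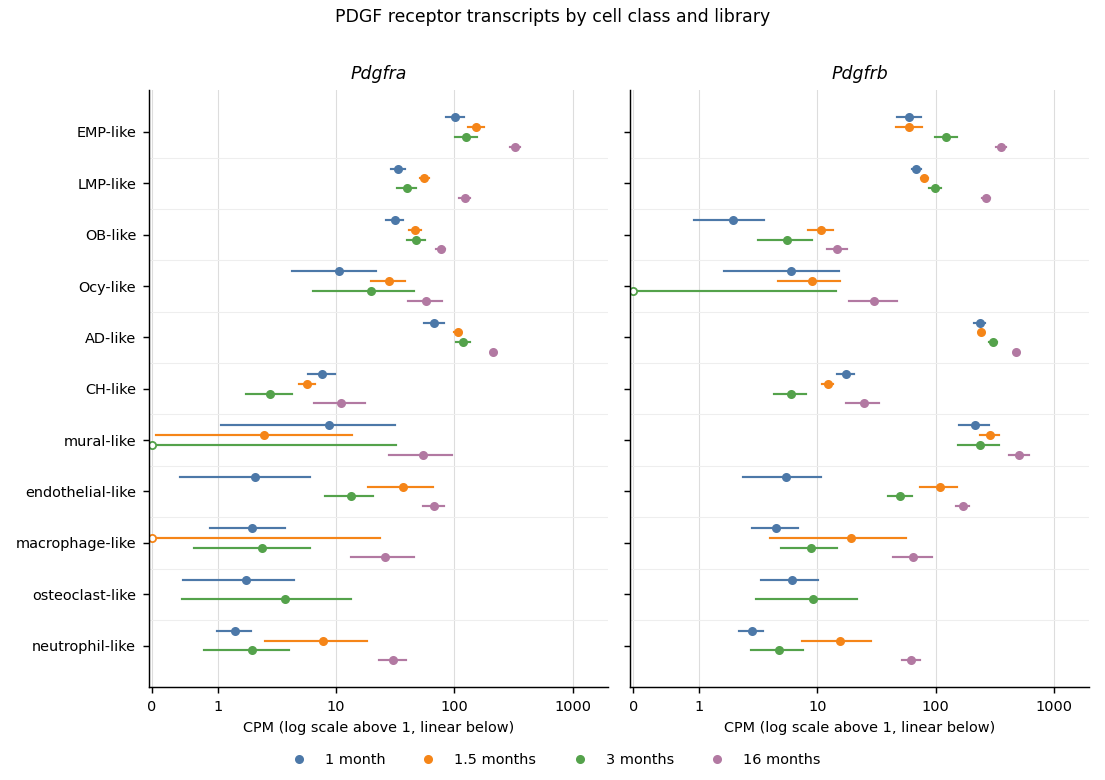
Summed level of Pdgfra and Pdgfrb (CPM, log scale above 1 and linear below) by cell class, coloured by library, for classes with at least 20 cells; bars are 95% Poisson intervals of counting error and open points mark 0 UMIs. Of the classes shown, Pdgfra is highest in EMP-like cells (101 to 325 CPM) and Pdgfrb in AD-like (236 to 480 CPM) and mural-like cells (215 to 512 CPM).

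Pdgfrb had another order. AD-like cells held 236, 243, 305 and 480 CPM and mural-like cells 215, 288, 237 and 512 CPM at the 4 ages. These were the highest classes in every library, and neither led in all of them. The log2 ratio of mural-like over AD-like cells was -0.13 (-0.59 to 0.30), 0.25 (-0.04 to 0.52), -0.37 (-0.98 to 0.19) and 0.09 (-0.19 to 0.36), so each interval includes no difference. Only 27 to 118 Pdgfrb UMIs in 22 to 64 mural-like cells stand behind these ratios, and a difference within these intervals was not detectable at this depth.

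Both progenitor classes carried Pdgfrb at lower levels, EMP-like cells 60, 60.2, 123 and 356 CPM and LMP-like cells 69, 80.5, 99.3 and 265 CPM. Unnamed clusters with Limch1 among their leading genes held 122, 155 and 166 CPM at 1, 1.5 and 3 months, above both classes. Other unnamed stromal clusters of those libraries held less. At 16 months the unnamed cluster led by Col25a1 held 192 CPM, below both classes. AD-like cells were above EMP-like cells by a log2 ratio of 1.97 (1.62 to 2.35), 2.01 (1.64 to 2.41), 1.31 (0.98 to 1.66) and 0.43 (0.30 to 0.57) at 1, 1.5, 3 and 16 months. The gap was smallest in the oldest library. There the EMP-like cells also held 14106 CPM of the summed AD markers, against 365, 1223 and 1553 CPM at the younger ages and 35110 CPM in AD-like cells of the same library, and the part of that RNA in the narrower gap was not tested.

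OB-like cells, in contrast, were almost without Pdgfrb. They held 10, 67, 16 and 102 UMIs, or 1.93, 10.8, 5.56 and 14.7 CPM, below the neutrophil-like level at 1 and 16 months and just above it at 3 months. AD-like cells were 122, 22.4, 54.9 and 32.6 times higher, or log2 ratios of 6.94, 4.49, 5.78 and 5.03. At 16 months the log2 ratio was 4.00 with 10% mitochondrial UMIs allowed, when OB-like cells held 30.5 CPM, 4.15 at the finer clustering resolution of 1.2 and 4.27 with the excluded genes kept for clustering. At 3 months it was 4.86 without the highest doublet scores and 8.53 after the neutrophil-like CPM was subtracted. Ocy-like cells read 6.01, 9.01, 0 and 30.3 CPM, with a limit of 11.7 CPM for the 0 at 3 months. CH-like cells held 17.5, 12.2, 5.94 and 24.6 CPM of Pdgfrb.

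Endothelial-like cells read 5.47, 108, 50.4 and 170 CPM of Pdgfrb. Beside the AD marker RNA given above, they held 231, 952, 1111 and 1243 CPM of the summed mural markers, and the part of either in the level of Pdgfrb was not tested. At 1 month, when both were lowest, Pdgfrb in 167 endothelial-like cells rested on 8 UMIs. Their own endothelial markers summed to 2776, 2234, 3913 and 3564 CPM, and these cells were at the highest level of all 6 endothelial markers in every library.

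The balance of the receptors was also compared as the share of Pdgfrb among all UMIs of both. A share of UMIs can be compared between classes but is no ratio of protein. OB-like cells were at 5.78%, 18.9%, 10.5% and 16.1% and EMP-like cells at 37.2%, 28.2%, 49.4% and 52.3%. LMP-like cells stood at 67.3%, 59%, 71.4% and 68.4% and AD-like cells at 77.7%, 69.4%, 72.1% and 69.3%. Mural-like cells were at 96.1%, 99.2%, 100% and 90.3%. OB-like cells therefore had mostly Pdgfra UMIs, mural-like cells nearly only Pdgfrb UMIs, and AD-like cells both with Pdgfrb in the majority. CH-like cells, at 68.2% to 69.8%, lay where the neutrophil-like cells did (66.7% to 70.8% in the 3 libraries with enough UMIs).

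**Figure D2:**
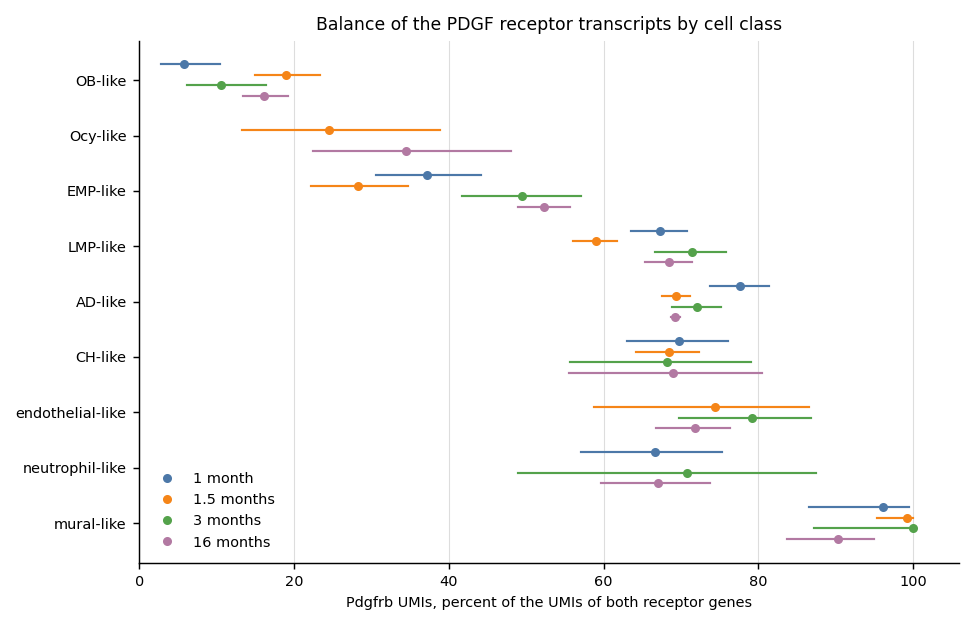
Share of Pdgfrb among the UMIs of both receptors (percent) by cell class, one point per library with enough UMIs, with 95% binomial intervals. OB-like cells sit between 5.78% and 18.9%, AD-like cells between 69.3% and 77.7%, and mural-like cells at 90.3% or above.

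To ask whether both receptors occur in the same cell, each cell was thinned to 3000 UMIs, because deeper cells show more genes. AD-like cells had medians of 6924, 5808, 3939 and 9558 UMIs, EMP-like cells 7323, 8258, 3666 and 7871, and neutrophil-like cells 11686, 12958, 6129 and 5880. After thinning, 65 or fewer cells of each of these classes and ages were too shallow and were left out. The loss was uneven. It took 43 of 164 EMP-like cells at 3 months. At 16 months it took 50 of 281 neutrophil-like cells and 65 of 3541 AD-like cells. UMIs of both receptors were found in 8.26% (4.97 to 12.7), 13.6% (11.7 to 15.7), 16.8% (13.1 to 21) and 36.1% (34.5 to 37.7) of AD-like cells. Pdgfrb without Pdgfra was found in 40.4%, 36.3%, 41.2% and 38.5%, and Pdgfra without Pdgfrb in 8.26%, 15.2%, 11.7% and 10.3%. In neutrophil-like cells neither receptor was found in 98.8%, 97.7%, 99.1% and 90%.

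Within AD-like cells Pdgfrb was present in 50%, 47.3%, 59% and 77.8% of cells with a Pdgfra UMI and in 48.4%, 51%, 57.6% and 71.7% of those without one. The first share was the lower at 1.5 months and the higher at the other ages, and the intervals of each pair overlap at the younger 3 ages. Unthinned, both receptors were seen in 30.7%, 32.2%, 25.3% and 78.5% of AD-like cells, so the share with both depends strongly on depth. A cell without a UMI is not shown to lack the transcript.

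In EMP-like cells Pdgfra alone was found in 21.6%, 25.9%, 24% and 28.7%, Pdgfrb alone in 12.3%, 9.48%, 25.6% and 20.7%, and both in 4.94%, 6.03%, 5.79% and 31.3%. Pdgfra alone was thus the most frequent of the 3 at 1 and 1.5 months. Pdgfrb alone led by little at 3 months (31 against 29 cells). Unthinned, Pdgfra alone led there (45 against 40 cells), and at 1500 UMIs Pdgfrb alone did (32 against 24 cells). Both led at 16 months, when EMP-like cells also held 14106 CPM of the summed AD markers, against 365 to 1553 CPM before. The part of that RNA in the share with both was not tested. OB-like cells showed Pdgfra alone in 8.58%, 13.8%, 11.7% and 22.2%, and both in 0 of 303 cells at 1 month, whose interval reaches 1.21%, then in 0.281%, 0.448% and 1.33%. Mural-like cells showed Pdgfrb alone in 54.2%, 54.7%, 57.1% and 59.1%.

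**Figure D3:**
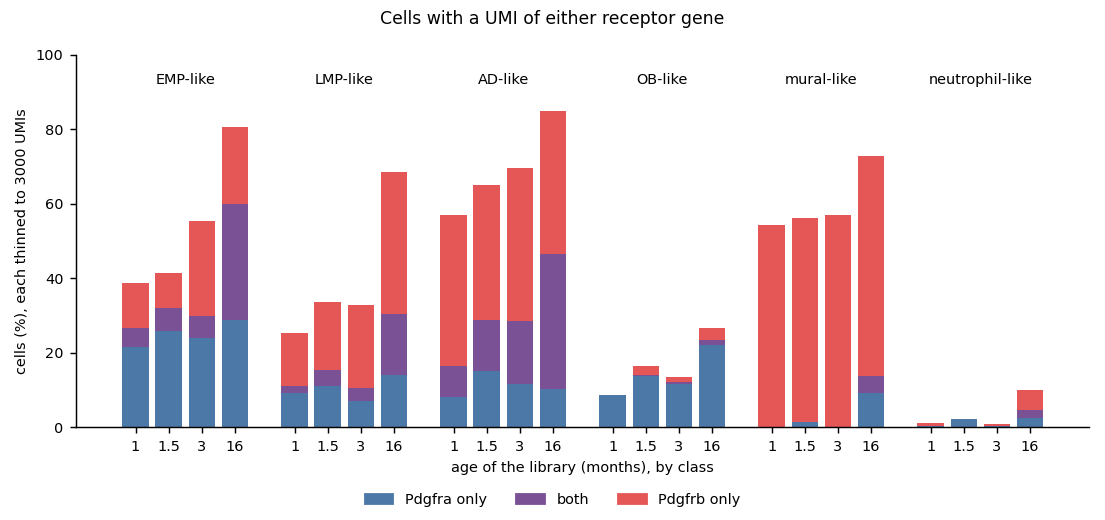
Percent of cells, each thinned to 3000 UMIs, with a UMI of Pdgfra only, of both receptors or of Pdgfrb only, stacked by age for 6 cell classes. Pdgfrb only makes the tallest part in AD-like and mural-like cells, Pdgfra only in OB-like cells, and neither receptor is found in 97.7% or more of neutrophil-like cells before 16 months and in 90% at 16 months.

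The AD-like class was made of several clusters, and both receptors were present in each. At 16 months the cluster led by heat shock genes (1032 cells) held 199 CPM of Pdgfra and 420 CPM of Pdgfrb, the one led by Il6 and Ccl2 (856 cells) 204 and 460 CPM, and the one led by Cxcl13 and Cndp1 (713 cells) 258 and 653 CPM. At 1.5 months the main cluster (866 cells) held 104 and 221 CPM and the smaller one led by Esm1 and Cbln1 (300 cells) 117 and 315 CPM. Over the 6 AD-like clusters of the 16 month library Pdgfrb ran from 377 CPM, in the cluster led by Kit and Fabp4 (57 cells), to those 653 CPM, far above the 14.7 CPM of OB-like cells.

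The AD-like levels of both receptors were higher at 16 than at 3 months. The log2 ratio was 0.85 (0.66 to 1.05) for Pdgfra and 0.65 (0.53 to 0.78) for Pdgfrb. The receptors were higher in the other classes of the oldest library too: in LMP-like cells by 1.62 and 1.42, in EMP-like cells by 1.37 and 1.53, in OB-like cells by 0.68 and 1.40 and in CH-like cells by 2.00 and 2.05. Neutrophil-like cells, whose receptor UMIs lay in a minority of cells at 16 months, showed the largest log2 ratios of the classes named here, 3.96 and 3.71. After the neutrophil-like CPM of each library was subtracted, the AD-like ratios were 0.65 for Pdgfra and 0.48 for Pdgfrb. Both of these rest on those neutrophil-like cells. Age, gene table, barcode set and the share of barcodes outside the filter all differ between these libraries and cannot be told apart.

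Turning to the ligands, Pdgfa was highest in Ocy-like cells in all 4 libraries. Ocy-like cells, which carry Sost, Dmp1, Mepe and Phex, held 779, 952, 1076 and 702 CPM from 518, 1268, 275 and 464 UMIs in only 41, 95, 33 and 49 cells. OB-like cells held 74.7, 77.2, 122 and 99.2 CPM. Ocy-like cells were 10.4, 12.3, 8.79 and 7.08 times higher, and the ranges over libraries do not overlap with those of any other class with at least 20 cells.

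After thinning, a Pdgfa UMI was found in 73.2%, 88.4%, 87.9% and 83.8% of Ocy-like cells, against 0.7%, 6.82%, 1.4% and 1.73% of neutrophil-like cells. These few cells gave 15.9%, 26.4%, 14.4% and 7.89% of all Pdgfa UMIs of the filtered cells. The comparison with OB-like cells was chosen after the levels were seen, and is a description.

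Mural-like cells came next, with 290, 400, 588 and 343 CPM of Pdgfa from 66, 164, 67 and 75 UMIs. They were 5.8, 9.34, 7.91 and 4 times above AD-like cells (50, 42.8, 74.4 and 85.8 CPM), and their range stayed below that of Ocy-like cells and above that of macrophage-like cells. Macrophage-like cells held 105, 95.9, 82 and 88.8 CPM and endothelial-like cells 31.4, 54, 74.9 and 101 CPM.

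LMP-like cells were steady in Pdgfa at 68.9, 62.3, 57.7 and 61.1 CPM, EMP-like cells varied between 38.1 and 123 CPM, and CH-like cells read 56.7, 52.3, 28.9 and 12.3 CPM. Below the mural-like class the ranges of neighbouring classes overlap. OB-like cells were above AD-like cells by a log2 ratio of 0.58 (0.23 to 0.95), 0.85 (0.64 to 1.06), 0.72 (0.43 to 1.01) and 0.21 (0.09 to 0.33), each less than the ratio of Ocy-like over OB-like cells. With the neutrophil-like CPM subtracted the 1.5 month ratio was 2.12, a value that rests on the 44 neutrophil-like cells with CH and OB marker RNA. Within the CH-like class, the 1.5 month cluster led by Cytl1 and Efemp1 held 181 CPM of Pdgfa and the one led by Serpina1d and Pcp4 held 28.9 CPM. At 1 month the same clusters stood at 87.9 and 53.9 CPM.

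Pdgfb was highest outside the mesenchymal classes. Endothelial-like cells held 51.9, 30.4, 60.3 and 67.5 CPM (76, 9, 91 and 102 UMIs) and macrophage-like cells 31.1, 70.3, 36.6 and 169 CPM (145, 11, 62 and 78 UMIs). Osteoclast-like cells, present in number at 1 and 3 months, held 20.8 and 44.5 CPM. Neutrophil-like cells held 0.868 CPM at 1 month and 0 UMIs at the other ages, so the endothelial-like level was 59.9 times higher at 1 month and at least 6.53-, 71.9- and 45-fold higher at 1.5, 3 and 16 months, taking 3 counts as the floor in neutrophil-like cells of each library.

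Endothelial-like and macrophage-like cells changed places between libraries. The log2 ratio of macrophage-like over endothelial-like cells was -0.74 (-1.15 to -0.32), 1.21 (-0.20 to 2.66), -0.72 (-1.21 to -0.24) and 1.32 (0.88 to 1.76). Macrophage-like cells numbered only 21 and 40 at 1.5 and 16 months. In the mesenchymal classes the highest level of Pdgfb was 2.64 CPM, in AD-like cells at 3 months from 5 UMIs, and the other mesenchymal classes held 0 to 3 UMIs each per library.

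Mural-like cells, on the receiving side of endothelial PDGF-B, held 2, 4, 1 and 5 Pdgfb UMIs, or 8.79, 9.76, 8.78 and 22.8 CPM. Endothelial-like over mural-like cells gave log2 ratios of 2.56 (0.66 to 5.63), 1.64 (-0.20 to 3.79), 2.78 (0.27 to 8.10) and 1.56 (0.29 to 3.22). The direction was the same in all 4 libraries, the size was poorly determined, and at 1.5 months the interval includes no difference. Endothelial markers summed to 74.7, 56.1, 70.2 and 142 CPM in mural-like cells.

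Much of the Pdgfb RNA of the 16 month library lay outside the filter. Of 722 Pdgfb UMIs there, 515 (71.3%) were in barcodes that failed it, against 25.3% to 36.4% for the other 5 genes. With the limit raised to 10% mitochondrial UMIs, 210 endothelial-like cells held 71.8 CPM of Pdgfb and 88 macrophage-like cells 191 CPM, near the values of the stricter filter. Mural-like cells rose in number from 22 to 169 under that limit and held 489 CPM of Pdgfrb, 436 CPM of Pdgfa and 22.8 CPM of Pdgfb.

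**Figure D4:**
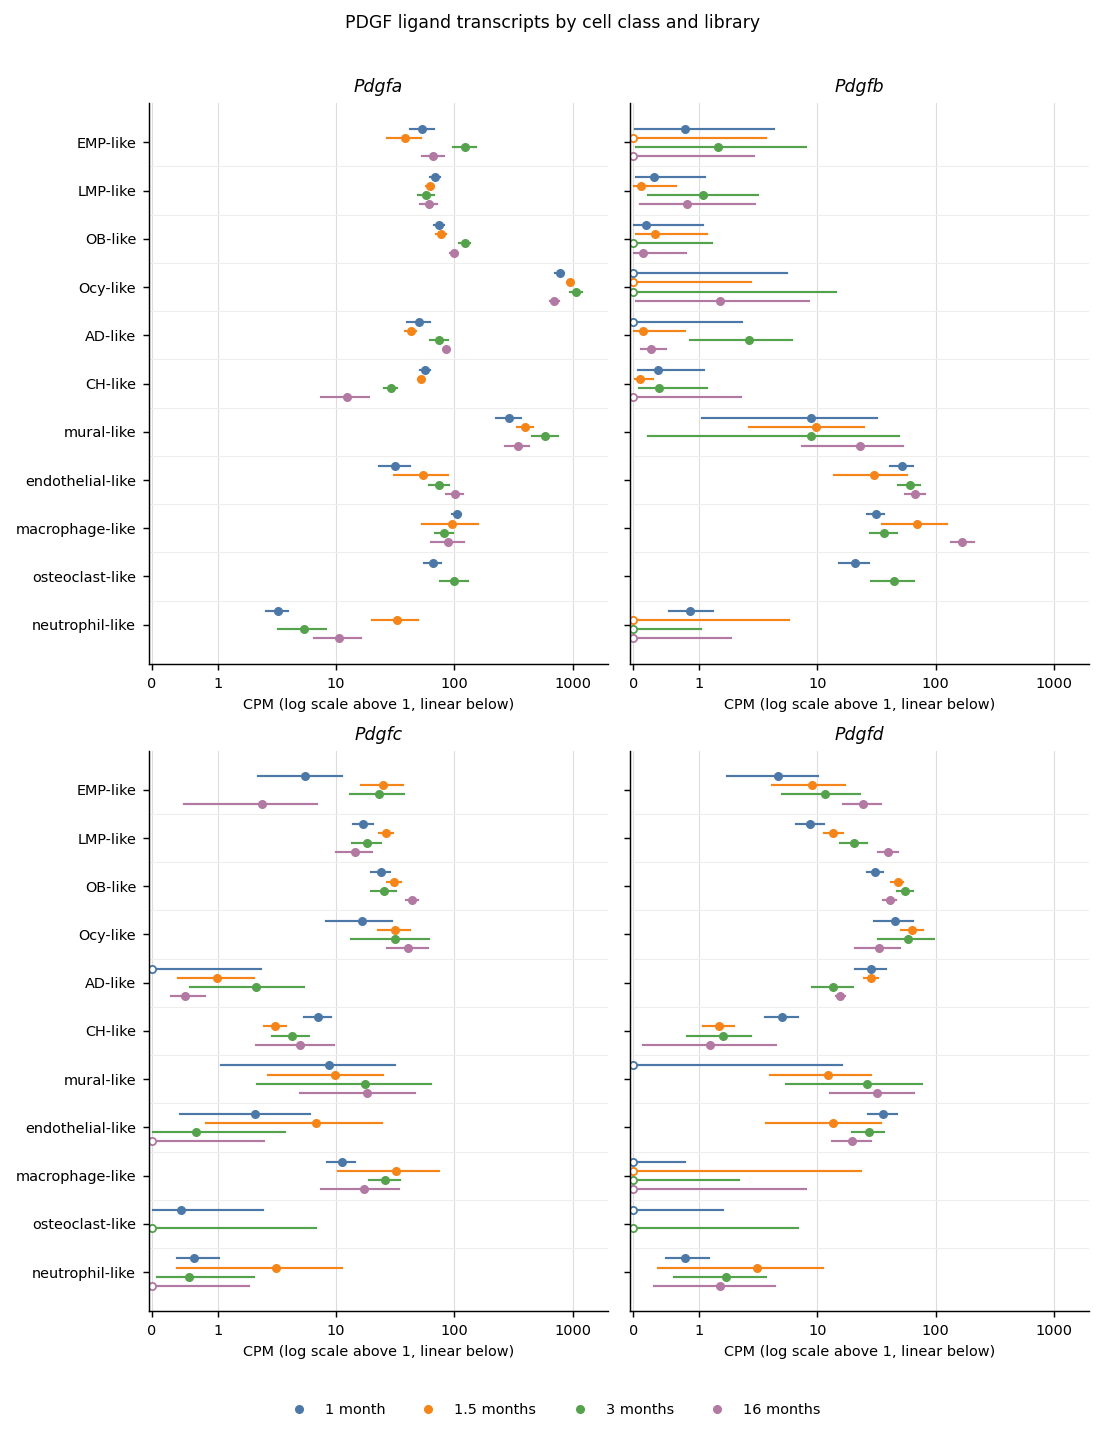
Summed level of the 4 ligands (CPM, log scale above 1 and linear below) by cell class, coloured by library, for classes with at least 20 cells; bars are 95% Poisson intervals of counting error and open points mark 0 UMIs. Pdgfa peaks in Ocy-like cells (702 to 1076 CPM), Pdgfb in endothelial-like and macrophage-like cells, and Pdgfc and Pdgfd have their highest medians in Ocy-like and OB-like cells.

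By the median over libraries Pdgfc and Pdgfd, the latent ligands, were both highest in Ocy-like and then OB-like cells among the named classes, and their promoters are shown because they shared these leading classes. Each line is the stretch of 250 bases before the RefSeq transcript start (GRCm38.p6, + strand, 5′ to 3′). The Pdgfc stretch is chr3:81036166-81036415 and the Pdgfd stretch chr9:6168236-6168485, and neither overlaps an annotated exon. Capitals mark the one motif found.
Pdgfc: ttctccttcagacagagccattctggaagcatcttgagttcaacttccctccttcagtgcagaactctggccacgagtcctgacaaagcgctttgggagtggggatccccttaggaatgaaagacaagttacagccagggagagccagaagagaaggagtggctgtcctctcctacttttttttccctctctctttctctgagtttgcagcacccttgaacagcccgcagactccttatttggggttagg
Pdgfd: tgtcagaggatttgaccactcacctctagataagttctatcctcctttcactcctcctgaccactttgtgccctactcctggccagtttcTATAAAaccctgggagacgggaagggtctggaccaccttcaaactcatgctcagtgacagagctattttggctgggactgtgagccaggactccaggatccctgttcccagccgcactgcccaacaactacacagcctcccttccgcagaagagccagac
Searched on both strands were the GC box GGGCGG, the TATA box TATAAA and the RUNX core TGTGGT, which 32.7%, 12.4% and 14% of 32851 promoter windows of this length hold. The Pdgfd stretch held 1 TATAAA, 160 bases before the start, and the Pdgfc stretch none of the 3. Both had 3 CpG dinucleotides, where the median window has 6, and a GC content of 50.8% (Pdgfc) and 53.6% (Pdgfd), near the median of 52.4%. Such a match is a description of letters and no binding site. In the annotation of the same build (GENCODE M21) Pdgfc spans chr3:81036416-81214040 and Pdgfd chr9:6168584-6378850, both on the + strand.

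Pdgfc reached 23.9, 31, 25.4 and 44.1 CPM in OB-like cells (124, 192, 73 and 305 UMIs) and 16.5, 31.5, 31.3 and 40.9 CPM in Ocy-like cells. LMP-like cells held 17, 26.6, 18.3 and 14.4 CPM and macrophage-like cells 11.2, 32, 26 and 17.3 CPM. The ranges of these classes overlap, and at 1.5 months the macrophage-like value (5 UMIs) was above the OB-like and Ocy-like ones. AD-like cells stood below the other mesenchymal classes at 0, 0.99, 2.11 and 0.499 CPM, from 0, 7, 4 and 17 UMIs in 218, 1166, 427 and 3541 cells.

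The OB-like level of Pdgfc was at least 12.7-fold higher than the AD-like one at 1 month (3 counts as the floor in AD-like cells), and 31.3, 12 and 88.2 times higher at the later ages. Neutrophil-like cells held 0.641, 0.559 and 0 CPM of Pdgfc at 1, 3 and 16 months (17, 2 and 0 UMIs). Their intervals (0.374 to 1.03, 0.0677 to 2.02 and 0 to 1.85 CPM) overlap the AD-like ones (0 to 2.31, 0.575 to 5.4 and 0.291 to 0.799 CPM). No order of these classes was resolved. Pdgfc was thus at 2.11 CPM or less in the AD-like class, where Pdgfrb was at or near its highest level.

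EMP-like cells held 5.45, 25.1, 23.2 and 2.37 CPM of Pdgfc from 7, 25, 16 and 3 UMIs. Against AD-like cells this was at least 2.91-fold higher at 1 month, and the log2 ratio was 4.66 (3.41 to 6.12), 3.46 (1.83 to 5.50) and 2.25 (-0.17 to 4.04) at 1.5, 3 and 16 months. The last interval, from 3 against 17 UMIs, includes no difference. At resolution 1.2 the ratio was 3.05 at 1.5 months and 1.63 at 3 months, and it was 3.25 at 1.5 months with each library clustered by itself. At 3 months the 2 EMP-like clusters were unlike: the one led by Clec3b and Tnxb (116 cells) held 31.7 CPM of Pdgfc and 0 UMIs of Pdgfd, and the one led by Cxcl9 and Il33 (48 cells) 0 UMIs of Pdgfc and 43 CPM of Pdgfd. Pdgfra stood at 103 and 188 CPM in that pair of clusters and Pdgfa at 153 and 43 CPM.

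In each library a mesenchymal cluster left unnamed by the markers had a higher value of Pdgfc than both the OB-like and the Ocy-like class. At 3 and 16 months the intervals overlap those of both classes, so no order was resolved there. They were 25.1 to 61.9 and 43.8 to 56.6 CPM, beside 19.9 to 31.9 and 39.2 to 49.3 CPM in OB-like cells. The cluster led by Spp1, Col25a1 and Dmp1 held 40.3 and 56.5 CPM at 1 and 1.5 months, the one led by Col25a1, Spp1 and Dmp1 at 16 months 49.9 CPM, and the one led by Adamts18 and Lcat at 3 months 40.5 CPM. Their summed OB markers, at 33778, 47411, 60866 and 43100 CPM from 1 to 16 months, were below those of OB-like cells (157430, 246775, 245554 and 208002 CPM). Osteoclast-like cells, which share the bone surface, held 1 UMI at 1 month and 0 at 3 months.

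Of the named classes, Pdgfd had its highest medians in Ocy-like cells at 45.1, 63.8, 58.7 and 33.3 CPM and in OB-like cells at 31, 47.7, 55.3 and 40.9 CPM. The unnamed clusters given above held 30, 63.6, 81 and 30.6 CPM, the third of these above every named class of its library. Its interval (58.4 to 110 CPM) overlaps that of Ocy-like cells (32.9 to 96.8 CPM). Endothelial-like cells held 36.2, 13.5, 27.2 and 19.8 CPM, at 1 month more than OB-like cells, and AD-like cells 28.7, 28.7, 13.7 and 15.7 CPM. Unlike Pdgfc, Pdgfd was thus above the neutrophil-like level (0.792 to 3.1 CPM) in AD-like cells of all 4 libraries. CH-like cells, at 5.03, 1.48, 1.58 and 1.23 CPM, were 6.16, 32.3, 34.9 and 33.3 times below OB-like cells.

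In macrophage-like cells not 1 UMI of Pdgfd was found in any library, over 519, 21, 379 and 40 cells, which allows up to 0.644, 19.2, 1.77 and 6.5 CPM. Osteoclast-like cells had none either at 1 and 3 months (up to 1.3 and 5.56 CPM). With 10% mitochondrial UMIs allowed, 2 Pdgfd UMIs appeared in 88 macrophage-like cells at 16 months (2.2 CPM). The other latent ligand, Pdgfc, was found in macrophage-like cells at every age, so these ligands differed in the macrophage-like class.

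Between EMP-like and AD-like cells, Pdgfd turned with the library. EMP-like cells held 4.67, 9.03, 11.6 and 24.5 CPM (6, 9, 8 and 31 UMIs), giving log2 ratios over AD-like cells of -2.62 (-4.14 to -1.39), -1.67 (-2.82 to -0.71), -0.24 (-1.60 to 0.94) and 0.65 (0.07 to 1.17). The AD-like class was above at 1 and 1.5 months and below at 16 months, and at 3 months the interval includes no difference. LMP-like cells also read 8.67, 13.7, 20.4 and 39.8 CPM at the 4 ages, with a gap inside the class: at 3 months the cluster led by Ostn and Postn held 33.5 CPM of Pdgfd and the one led by Nov and Mfap4 5.39 CPM, and at 1.5 months the like pair held 20.3 and 5.08 CPM.

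**Figure D5:**
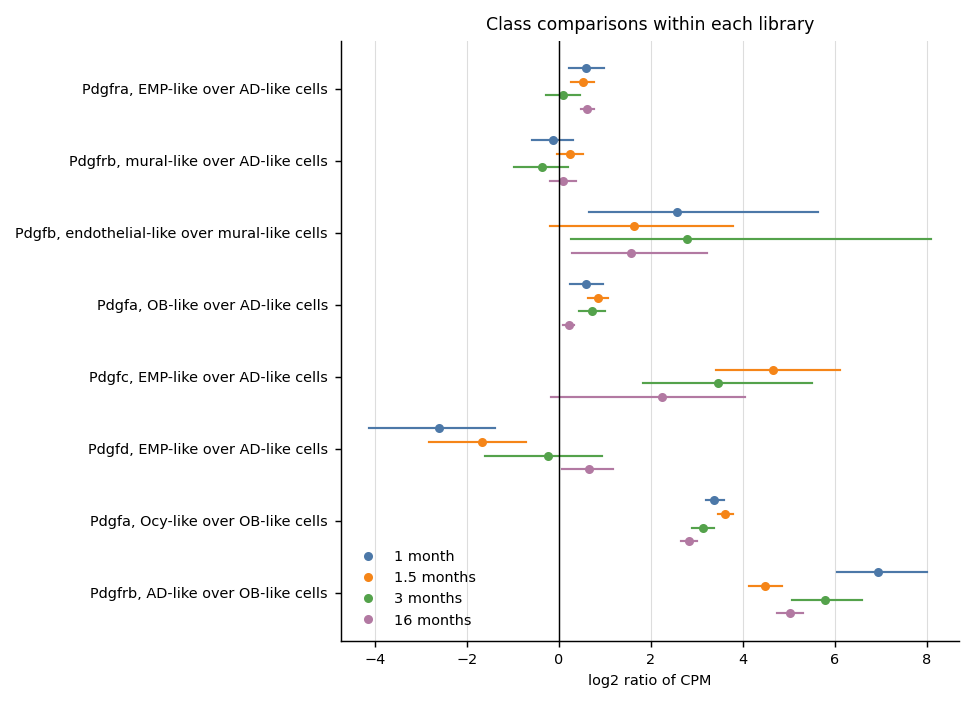
Log2 ratio of CPM between 2 cell classes within each library, with 95% counting intervals, for 8 comparisons of the PDGF genes; the line at 0 marks no difference, and Pdgfc at 1 month, with 0 UMIs in AD-like cells, has no point. Pdgfd in EMP-like over AD-like cells runs from -2.62 at 1 month to 0.65 at 16 months, whereas Pdgfa in Ocy-like over OB-like cells stays between 2.82 and 3.62.

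In AD-like cells Pdgfa and Pdgfd did not differ from 3 to 16 months by more than their counting intervals. The log2 ratio of 16 over 3 months was 0.21 (-0.04 to 0.46) for Pdgfa and 0.19 (-0.38 to 0.82) for Pdgfd, and both intervals include no difference. Pdgfb gave -3.32 (-5.05 to -1.39) from 9 against 5 UMIs and Pdgfc -2.08 (-3.70 to -0.05) from 17 against 4 UMIs. Both of these intervals exclude no difference, but the values rest on too few counts to read a size from. In OB-like cells Pdgfc gave 0.79 (0.42 to 1.18) and Pdgfa -0.30 (-0.49 to -0.11), in Ocy-like cells Pdgfa gave -0.62 (-0.83 to -0.40), and in macrophage-like cells Pdgfb gave 2.21 (1.71 to 2.71). None of these has a replicate.

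For the background of such contrasts, all genes with at least 10 CPM in 1 of the 2 groups were taken, and those at least 2-fold apart were counted. Between AD-like and EMP-like cells, 15.1% of 8203 genes were higher and 10.3% lower in AD-like cells at 1 month, 16.5% and 10.8% of 8161 at 1.5 months, 15.4% and 12.8% of 8293 at 3 months, and 5.37% and 7.81% of 8630 at 16 months. Of the 6 members, 4, 5, 5 and 4 passed the filter at the 4 ages. Higher were Pdgfd and Pdgfrb at 1 and 1.5 months and Pdgfrb at 3 months, lower was Pdgfc at 1.5 and 3 months, and none was 2-fold apart at 16 months. From 3 to 16 months in AD-like cells, 13.4% of 8232 genes were higher and 5.1% lower by this measure, and none of the 4 members that passed.

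A further list of 52 PDGF pathway genes, all in the tables, was counted the same way. Between AD-like and EMP-like cells 48, 45, 46 and 49 of them passed the filter at 1, 1.5, 3 and 16 months. Of these 12, 14, 11 and 2 were higher and 6, 6, 6 and 7 lower in AD-like cells. The shares over all genes at these ages are those given above, and both were lowest at 16 months. EMP-like cells of that library also held 14106 CPM of the summed AD markers. The part of that RNA in the smaller contrast was not tested. No intervals were made for single genes of the list. The median log2 ratio over the list was 0.27, 0.35, 0.21 and 0.20, beside 0.10, 0.06, 0.04 and -0.07 over all genes that passed.

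Among the 10 genes that process or bind PDGFs, 2 proteases stood on the EMP-like side. Plat, which encodes tissue plasminogen activator and cuts latent PDGF-C, held 52.2, 118, 123 and 59.2 CPM in EMP-like and 2.5, 6.5, 1.05 and 1.94 CPM in AD-like cells. Its log2 ratio of AD-like over EMP-like cells was -4.38, -4.19, -6.87 and -4.93. At 1 and 3 months the AD-like values lie near or below the level of 3 counts (1.87 and 1.58 CPM). The sizes at those ages are poorly determined. Plau, the urokinase gene, whose product can activate PDGF-D, gave -4.22 at 1 month (0.625 against 11.7 CPM) and -4.67 at 16 months (0.529 against 13.4 CPM). Its AD-like value at 1 month is also below the level of 3 counts.

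The convertase gene Pcsk6 was also lower in AD-like cells, at -2.42, -2.16, -4.26 and -4.84 from 1 to 16 months. At 3 months its AD-like value (1.58 CPM) was at the level of 3 counts. So the size there is poorly determined. Pdgfrl, which encodes a receptor-like protein, was lower in AD-like cells too, at -1.04, -1.75, -5.17 and -6.07. The convertase gene Pcsk5 went the other way at 1 month, with 54.4 CPM in AD-like and 7.01 CPM in EMP-like cells (2.96). It did so less at 1.5 and 3 months (1.64 and 1.32). At 16 months the values of Pcsk5 were 30.3 and 22.9 CPM, less than 2-fold apart.

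Of the 11 negative regulators, 4, 5, 4 and 1 were at least 2-fold higher in AD-like cells and none was lower. Over all genes 15.1%, 16.5%, 15.4% and 5.37% were higher and 10.3%, 10.8%, 12.8% and 7.81% lower. A list of 11 genes is too short to read the lack of lower ones, or the 1 higher at 16 months, as a result. Spry4, a feedback inhibitor of receptor tyrosine kinases, held 23.1, 36.5, 28 and 102 CPM in AD-like and 3.12, 3.01, 2.9 and 26.9 CPM in EMP-like cells, or log2 ratios of 2.89, 3.60, 3.27 and 1.93. The EMP-like Spry4 values at 1, 1.5 and 3 months lie near or below the level of 3 counts (2.34, 3.01 and 4.35 CPM). The sizes at these ages are poorly determined. Spry1, of the same family, gave 3.03, 3.11 and 1.81 at 1, 1.5 and 3 months. At 16 months Spry1 was 1.55 times higher in AD-like cells.

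Among the 31 signalling genes, Fyn, a kinase of the Src family that binds activated receptors, was lower in AD-like cells at every age. Its log2 ratios were -2.81, -3.26, -3.49 and -2.82. Stat5a was higher at 1, 1.5 and 3 months (1.02, 2.69 and 2.21) and less than 2-fold apart at 16 months (0.69), and Src was higher at 16 months (1.57). From 3 to 16 months in AD-like cells 44 of the 52 genes passed, 7 were higher and none lower, beside 13.4% and 5.1% of all genes. The median was 0.38 beside 0.17 over all genes. The 3 with the largest ratios were Crkl (5.10), Spry4 (1.87) and Sos1 (1.29). In AD-like cells at 3 months Crkl read 0.527 CPM, below the level of 3 counts (1.58 CPM). The size of its ratio is poorly determined. Crkl stood at 1.14, 0.864 and 0.709 CPM over all cells of the younger libraries and 15.9 CPM in the oldest, so its step falls together with the change of gene table.

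Over 66 pairs of a class and a library with at least 20 cells, the genes whose log2(CPM + 1) ran most like that of each member were found by Pearson's r among 12715 genes. Pdgfrb ran most like C1s1 (0.93), Fst (0.93) and Igfbp5 (0.92), and Pdgfra like Clmp (0.91), Frmd6 (0.90) and Cdh11 (0.88). For the ligands they were Mef2a, Rilpl1 and Plekha1 (0.82, 0.81 and 0.81) for Pdgfa, Rasgef1b, Prdm1 and Ltc4s (0.82, 0.81 and 0.81) for Pdgfb, Insc, Nab2 and Cpe (0.77, 0.76 and 0.76) for Pdgfc, and Rapgef4, Stox2 and Pcsk5 (0.87, 0.87 and 0.85) for Pdgfd. Classes of 1 library share its depth and its free RNA, and classes recur over libraries, so these values describe likeness only.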

How the data were processed

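UMI counts per gene and cell barcode were deposited by the authors as 1 matrix per library; per the labels they were made with Cell Ranger 3.0.2 against mm10, with Seurat 2 also listed, and no normalization. The authors' filter (200 to 6000 genes, at most 5% mitochondrial UMIs) was applied to all barcodes. Canonical correlation was used to align the libraries of 1 and 1.5 months, and the others were clustered singly (Seurat 5.3.0, R 4.3.3, 2000 variable genes, 30 components, resolution 0.8), with the PDGF genes and naming markers left out. Clusters were named where at least 3 of a class's markers were raised (2 times the lower quartile over clusters, 25% of the highest cluster, and found in 10% of cells). Mesenchymal clusters with 3 or more of 15 leukocyte genes (a list chosen after the clusters were seen) among their 10 leading genes were set aside as mixed. Doublets were not removed beyond the limit of 6000 genes; removal of the highest Scrublet scores (scanpy 1.11.5) was an alternative. UMIs were summed per class and library (Python 3.11.15, numpy 2.4.6, pandas 2.3.3). Intervals at 95% are exact Poisson for CPM, exact binomial (Clopper-Pearson) for shares and conditional binomial for ratios (scipy 1.17.1), and the scripts were tested on simulated data. UMIs lie in 1 library per age, so no test was run and no paired fit exists. Named are the 6 members, the 3 pathway genes with the largest ratio in each direction among those at least 2-fold apart, and the 3 genes most like each member; 1 gene that this rule names is not reported here. The members and lists were chosen with earlier results of these data known. Alternatives tried were 2 other resolutions, separate clustering, a limit of 10% mitochondrial UMIs, doublet removal and equal weight per cell. Others were retention of the excluded genes for clustering, subtraction of the neutrophil-like CPM and other thinning depths. Mural- or endothelial-like cells with UMIs of the other class were also removed. Of the class comparisons of single members, 6 were planned. Pdgfra, Pdgfc and Pdgfd were planned in EMP-like over AD-like cells and Pdgfa in OB-like over AD-like cells. Pdgfrb was planned in mural-like over AD-like cells and Pdgfb in endothelial-like over mural-like cells. The others, of which 3 were rerun under the alternatives, were added after seeing the data. So was the omission of 2 AD-like clusters at 16 months.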

Additional observations from a re-analysis of the deposited data

Results flagged for a closer look

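Pdgfd in EMP-like over AD-like cells had a log2 ratio of -2.62 at 1 month and -1.67 at 1.5 months but 0.65 at 16 months, with intervals on opposite sides of 0. The difference between the ages was not tested, since each age is 1 library. Pdgfd stood at 28.7 CPM in AD-like cells at 1 month and at 15.7 CPM at 16 months, and in EMP-like cells at 4.67 and 24.5 CPM.

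Pdgfc gave a log2 ratio of 16 over 3 months of 0.79 in OB-like cells and of -2.08 in AD-like cells, the latter from 17 against 4 UMIs. This difference was not tested either.

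Barcodes outside the filter, used in no comparison, made up 33.4% of the 16 month library. Every member was above its neutrophil-like level of that library in them, at 113 CPM for Pdgfa, 20.2 for Pdgfb, 15.7 for Pdgfc, 20.7 for Pdgfd, 138 for Pdgfra and 287 for Pdgfrb.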

How the results depend on the processing

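Under the alternatives run no value whose interval excluded 0 changed sign. Those that did were Pdgfra in EMP-like over AD-like cells at 3 months (lowest -0.06) and Pdgfrb in mural-like over AD-like cells at 1 month (highest 0.08). Of the values recomputed per result, 186 stayed within their interval and 19 moved, and of those per library 228 stayed and 17 moved. The median log2 ratio of Pdgfc in EMP-like over AD-like cells went from 3.46 to 2.25 at resolution 1.2. For 16 over 3 months in AD-like cells, Pdgfb gave -1.03 at resolution 0.5, -1.11 with 10% mitochondrial UMIs allowed, -1.22 without the highest doublet scores, -1.13 with equal weight per cell and -1.14 with the excluded genes kept. Pdgfra gave 0.65 with the neutrophil-like CPM subtracted, and Pdgfrb 0.48 with it subtracted and 0.79 at resolution 1.2. AD-like cells with both receptors were 30.7%, 32.2%, 25.3% and 78.5% at 1, 1.5, 3 and 16 months without thinning and 4.59%, 3.69%, 7.49% and 14.2% thinned to 1500 UMIs, where fewer UMIs per cell are drawn. Pathway genes at least 2-fold apart at 16 months rose from 9 to 14, and for 16 over 3 months from 7 to 13, with the subtraction. Pdgfa in Ocy-like over OB-like cells at 1.5 months went from 3.62 to 4.36 with the subtraction. Beyond the thinning the cause was not tested. The class with the highest median became macrophage-like for Pdgfb at resolution 1.2, with 10% mitochondrial UMIs and with equal weight per cell, macrophage-like for Pdgfc with 10% mitochondrial UMIs, and mural-like for Pdgfrb at resolution 1.2 and without the highest doublet scores. In that last setting Pdgfrb in mural-like over AD-like cells had a value at 1.5 months only, so the libraries behind the medians differ. Without the 16 month cluster led by heat shock genes, or without that led by Il6 and Ccl2, no value for 16 over 3 months moved. Without the highest doublet scores no library gave a value for the Pdgfb comparison. The 1.5 month library still gave one for Pdgfrb in mural-like over AD-like cells (0.26). At resolution 0.5 no mural-like cluster was found at 16 months. Omission of cells with UMIs of the other class left a Pdgfb value at 3 months only (2.61). No paired analysis was possible because each age is 1 library. Counts limit Pdgfb and Pdgfc in mesenchymal classes and all values of mural-like cells.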
